A study of Arabidopsis thaliana with 3 samples.

Results

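BBX14, BBX15, BBX16 and BBX17 make up structural group III of the B-box zinc finger family of Arabidopsis thaliana, and the peaks of the transcription factor FHY3 around these 4 genes are described here. A peak was counted for a gene when any part of its interval overlapped the gene's TAIR10.1 span extended by 3000 bp on each side. By this rule 2 of the 2838 deposited peaks belonged to the 4 genes, 1 in each ChIP replicate, and both lay at BBX16. The genes are 4 of 27444 nuclear protein-coding genes in the gene table. The set was chosen by the measured score ranks of the BBX16 peaks in these same lists, so the position, score and rank of those peaks are given as a description and were not tested.

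The study mapped FHY3 by chromatin immunoprecipitation and sequencing (ChIP-seq) in young inflorescences holding flowers up to stage 8, from plants kept in a greenhouse under days of 16 h light and 8 h dark. All plants were fhy3-4 mutants with the transgene 35S:3FLAG-FHY3-3HA, in which the 35S promoter drives FHY3 fused to FLAG and HA tags. That promoter is active in most tissues, so the tagged protein can be present where the plant's own FHY3 is not. The series has 3 samples: 2 FHY3 ChIP samples, precipitated with an anti-FLAG antibody and described as separate biological replicates, and 1 input sample without antibody, whose values were not analysed here. There is no second genotype, treatment or time, so the comparisons are between genes and between the replicates.

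FHY3 derives from a transposase and acts with its relative FAR1 in far-red light signalling downstream of phytochrome A. B-box proteins carry zinc-binding B-box domains that mediate contacts with other proteins, and many act in light signalling, flowering time and shade responses beside HY5 and the COP1/SPA ubiquitin ligase. Group III proteins have a single B-box together with a CCT domain, the C-terminal domain also found in CONSTANS. BBX16, also named COL7, is known for roles in shoot branching and shade responses. BBX17 is known for a role in flowering time.

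Replicate 1 had 1475 nuclear peaks with a median width of 906 bp, and replicate 2 had 1354 with a median width of 953 bp. The authors' score has no stated scale and ran from 23.03 to 3100 in both lists, with medians of 42.8 in replicate 1 and 55.4 in replicate 2. Scores and ranks are therefore read within a list. The highest score, 3100, was shared by 9 peaks in replicate 1 and 8 in replicate 2, so the score does not order those peaks. Reads were not analysed here, which leaves depth unknown, and a peak's score and width are single values without a counting error. Overlapping peaks of both lists formed 882 shared regions. No source used here names the genome build of the lists, so every distance to a gene assumes the frame of TAIR10.1.

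FHY3 peaks lay over the lower-coordinate end of BBX16 (AT1G73870, chromosome 1, 27778984 to 27780809, 1826 bp). The replicate 1 peak ran from 27778021 to 27779460, was 1440 bp wide and scored 877. The replicate 2 peak ran from 27777876 to 27779481, was 1606 bp wide and scored 1738. The replicate 1 interval was wholly inside that of replicate 2, of which it covered 89.7%. Most of each peak lay outside the gene. In replicate 1, 963 bp were outside and 477 bp, or 33.1% of the peak, inside BBX16. In replicate 2, 1108 bp were outside and 498 bp, or 31.0%, inside. The peaks reached over 26.1% and 27.3% of the BBX16 span in replicates 1 and 2, and the remaining span, toward the higher-coordinate end, held no peak. Strand was not used here, so it is not stated whether this end is the start of transcription, and exons, introns and untranslated regions were not assigned.

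The space between BBX16 and its lower-coordinate neighbour AT1G73860 is 2100 bp, and the peaks filled the side nearer to BBX16. They covered 45.9% of this space in replicate 1 and 52.8% in replicate 2, which left 1137 and 992 bp next to AT1G73860 without a peak. Midpoints lay 244 bp from BBX16 in replicate 1 and 306 bp in replicate 2. The same midpoints were 1857 and 1795 bp from AT1G73860. On the other side AT1G73875 begins 45 bp after BBX16, and the midpoints were 2115 and 2177 bp from it. The peaks thus also fell within 3000 bp of both neighbours, and the lists alone do not assign them to 1 gene. BBX16 was the gene that the intervals overlapped and that lay nearest to both midpoints.

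**Figure D1:**
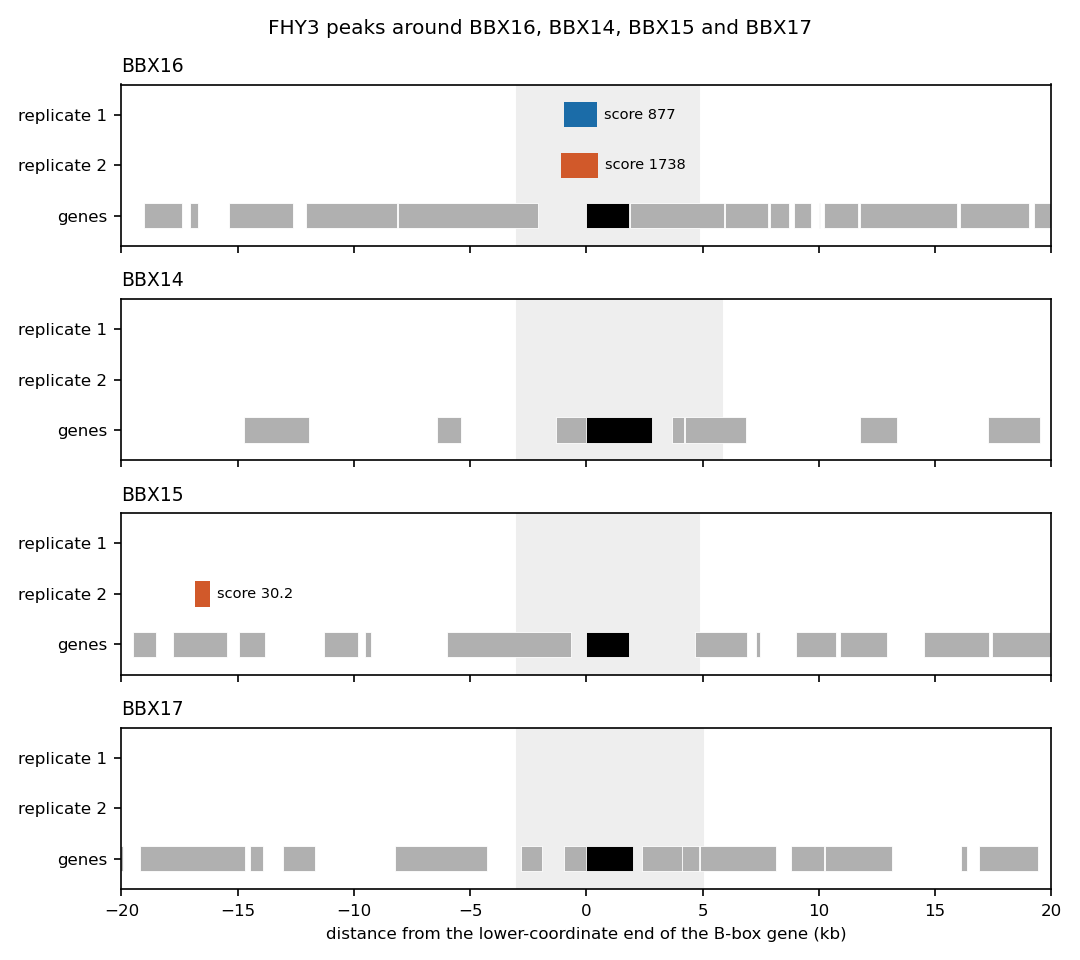
FHY3 peaks within 20 kb of the lower-coordinate end of each gene, with replicate 1 in blue, replicate 2 in orange, the B-box gene in black, other genes in grey and the 3000 bp window shaded; the horizontal axis is distance in kb. Peaks fall in the window of BBX16 in both replicates (scores of 877 and 1738) and in no other window, and the peak of replicate 2 near BBX15 lies outside its window.

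The outlines of the BBX16 peak in both replicates differed by 145 bp at the lower-coordinate edge and by 21 bp at the other. Across the 336 shared regions that scored at least 100 in both lists and were made of 1 peak from each, the median difference was 79.5 bp at the lower edge and 83.5 bp at the upper edge. An offset at least as large as that of BBX16 was seen at the lower edge of 25.3% of these regions and at the upper edge of 79.8%. The wider BBX16 peak was that of replicate 2, as in 260 of the 336 regions (77.4%).

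The BBX16 peak ranked 29 of 1475 by score in replicate 1 and 21 of 1354 in replicate 2, within the top 1.97% and 1.55% of the lists. In replicate 1 the next score above it was 888 and the next below 855, and in replicate 2 these were 1788 and 1699, so it stood on the upper slope of each list and not apart from its neighbours. Some of the peaks above it lay in gene-poor regions, defined as 500 kb bins with under 0.5 times the median gene density of their chromosome. In replicate 1 this held for 13 of the 28 higher peaks, against 639 of all 1475, and in replicate 2 for 9 of the 20, against 478 of all 1354. Outside those bins the BBX16 peak ranked 16 of 836 in replicate 1 and 12 of 876 in replicate 2. On chromosome 1 outside those bins it ranked 4 of 205 in replicate 1 and 3 of 217 in replicate 2.

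**Figure D2:**
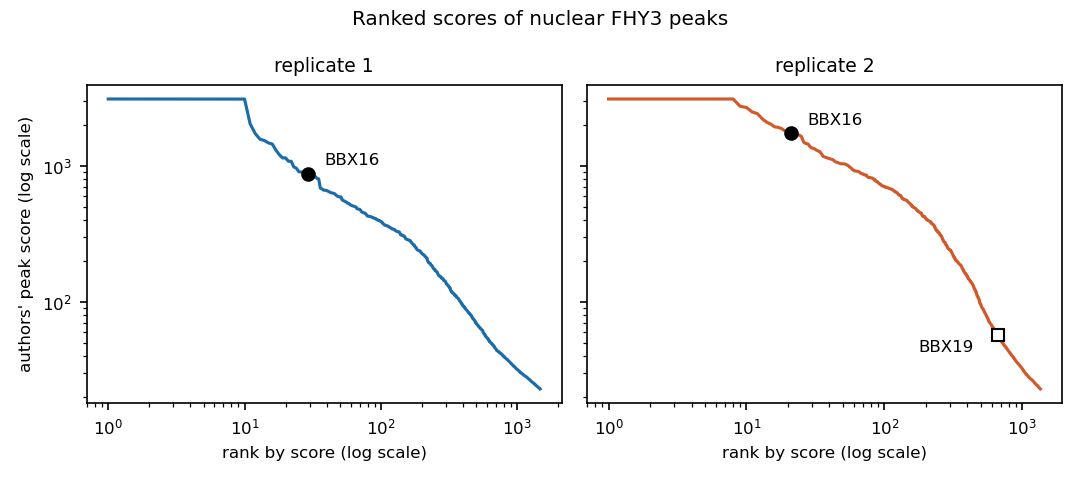
Scores of all nuclear peaks against rank, for replicate 1 (left) and replicate 2 (right), both axes on a log scale; the filled circle is the BBX16 peak and the open square the BBX19 peak, called in replicate 2 alone. BBX16 sits at rank 29 in replicate 1 and 21 in replicate 2, while BBX19 sits at rank 667 in replicate 2.

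By width the BBX16 peak was less extreme than by score, at rank 229 in replicate 1 and 149.5, a tie, in replicate 2. It was 1.59 times as wide as the median peak in replicate 1 and 1.69 times in replicate 2. The joined region spanned 1606 bp, against a median of 1318 bp over the 348 shared regions scoring at least 100 in both lists, and 63 of the 348 (18.1%) were wider. Its midpoint was outside any protein-coding gene, as for 148 of these 348 regions (42.5%). It lay 306 bp from the nearest gene end, against a median of 738 bp over all 348. That median includes the 200 regions with their midpoint inside a gene, so the 2 values are not fully alike. The BBX16 interval crossed a gene end, as did 169 of the 348 (48.6%). Spanning the edge of a gene thus did not set BBX16 apart among these regions. The share expected for intervals of this width placed anywhere was not computed, so the 48.6% is not read as a trait of high-scoring regions.

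By the sum of its ranks in both lists, 22 of the 882 shared regions stood above BBX16, and 13 of the 603 outside gene-poor bins. Among shared regions with a protein-coding gene within 3000 bp, the 5 nearest to it in rank, by the summed absolute difference of ranks over the 2 lists, were those at CRK3, a receptor-like kinase gene, A/N-InvC, an invertase gene, AT3G49140, AT4G38480 and TPP2, a peptidase gene. Their ranks ran from 23 to 28 in replicate 1 and from 18 to 25 in replicate 2. They were 1486 to 1606 bp wide, close to the 1606 bp of the BBX16 region. The midpoints were inside AT3G49140, AT4G38480 and TPP2, 22 bp from CRK3 and 2328 bp from A/N-InvC.

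**Figure D3:**
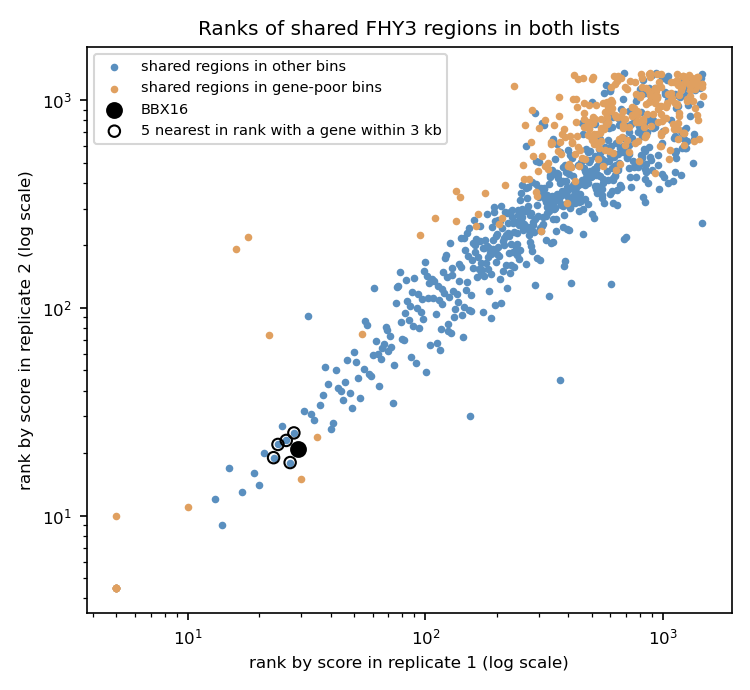
Rank by score in replicate 1 (horizontal) against replicate 2 (vertical) for the 882 shared regions, both on a log scale with the best ranks at the lower left; orange points lie in gene-poor bins, the black point is BBX16 and open circles mark the 5 regions nearest to it in rank among those with a protein-coding gene within 3000 bp. BBX16, at ranks 29 and 21, lies within the band of blue points.

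BBX14, BBX15 and BBX17 had no peak in their windows in either list, at any score down to 23.03. With BBX16, the count of genes with a peak was 1 of 4 in each list. For comparison, 7.24% of protein-coding genes had a peak within 3000 bp in replicate 1 (95% Wilson interval 6.94 to 7.56%), 7.6% in replicate 2 (7.30 to 7.92%), and 5.51% a shared region (5.24 to 5.78%). A peak ranked as high as that of BBX16, or higher, lay within 3000 bp of 0.179% of genes in replicate 1 and 0.12% in replicate 2. Because BBX16 was chosen for its peak, nothing is read from the count of 1 in 4. Most genes lacked a peak: 90.6% had none within 3000 bp in either list. Neighbouring genes share windows and peaks, so these intervals treat genes as more independent than they are.

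BBX14 (AT1G68520, chromosome 1, 25708175 to 25710989) lay farthest from a replicate 1 peak among the 4 genes. The nearest peak in replicate 1 was 250 kb away, at 25961379 to 25962338, with a score of 201 and a rank of 220. In replicate 2 a peak from 25654018 to 25654489 was closer, at 53.7 kb, but it scored 25.7, ranked 1223 and overlapped no peak of replicate 1. The peak at 250 kb was called there too, with a score of 254. No peak of replicate 1 and 1 peak of replicate 2 lay within 250 kb of BBX14, against a median of 4 per protein-coding gene in each list. The span of BBX14 overlaps that of LBD42, a LOB-domain gene, by 329 bp, and the empty window covered the whole of LBD42 as well.

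BBX15 (AT1G25440, chromosome 1, 8933716 to 8935544) had many peaks in its wider surroundings and none beside it. Within 100 kb there were 0 in replicate 1 and 3 in replicate 2. Within 250 kb there were 14 peaks in each list, above the 95th percentile of 10 over all protein-coding genes. Their median score was 35.1 in replicate 1, against 42.8 for the list, and 59.6 in replicate 2, against 55.4, and the highest were 134 and 147. The nearest in replicate 1 was 158 kb away, from 8773864 to 8775586, with a score of 134 and a rank of 309. The nearest in replicate 2 was 16.2 kb away, from 8916901 to 8917544, with a score of 30.2 and a rank of 1048, and it overlapped no peak of replicate 1. The gene on the higher-coordinate side, KCS5, encodes a synthase of very-long-chain fatty acids, and the 2842 bp between it and BBX15 held no peak. A pseudogene, AT1G25430, ends 657 bp before BBX15.

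BBX17 (AT1G49130, chromosome 1, 18174373 to 18176389) gave nearly the same picture in both replicates. The nearest peak was 140 kb away in each, at 18033081 to 18034081 in replicate 1, with a score of 85.7, and at 18033036 to 18034247 in replicate 2, with a score of 185. It was the only peak within 250 kb in either list. BBX17 overlaps CRF9, a gene of the cytokinin response factor family, by 44 bp. In replicate 1, BBX14, BBX15 and BBX17 were farther from a peak than 95.3%, 87.6% and 84.7% of protein-coding genes, for which the median distance was 47.2 kb. In replicate 2 they were farther than 56.6%, 24.7% and 86.3% of genes, with a median distance of 43.5 kb. BBX17 alone of these 3 kept a similar place in both lists, since the nearest peaks of BBX14 and BBX15 in replicate 2 were low-scoring and absent from replicate 1.

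At BBX16 itself the FHY3 peak was the only one in the window in each list. The next nearest peak was 36.8 kb away in replicate 1, with a score of 23.3 and a rank of 1464.5, and 89.9 kb away in replicate 2, with a score of 53.9 and a rank of 690. Neither overlapped a peak of the other list. The nearest further peak found in both lists was 105 kb away, from 27885857 to 27886576 in replicate 1 and from 27885879 to 27886550 in replicate 2, with scores of 26.4 and 61.8. Within 250 kb, BBX16 had 4 peaks in replicate 1 and 6 in replicate 2, its own included, against the median of 4. Within 100 kb it had 2 in each list, its own included, against a median of 1 per protein-coding gene. None of the 4 genes lay in a gene-poor bin.

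The other 28 genes of the B-box family were examined by the same rule. None had a peak within 3000 bp in replicate 1, 1 had a peak in replicate 2 and none had a shared region, for which 0 of 28 allows a share of up to 10.7%. The background shares would give 2.03 genes in replicate 1, 2.13 in replicate 2 and 1.54 with a shared region, and the limit of 10.7% lies above the background shares of 7.24%, 7.6% and 5.51%. Counted by structure, none of the 6 genes of group I (CONSTANS and its nearest relatives, with 2 B-boxes and a CCT domain), none of the 7 of group II (which also carry both domains) and none of the 7 of group V (with a single B-box and no CCT domain) had a peak. In group IV, with 2 B-boxes and no CCT domain, 1 of 8 did. BBX1 and BBX2, BBX9 and BBX30, and BBX10 and BBX31 are near neighbours and share surroundings, so the 28 genes are not separate cases.

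The gene with a peak in group IV was BBX19 (AT4G38960), known for delaying flowering by acting on CONSTANS. Its peak was called in replicate 2 alone, on chromosome 4 from 18162433 to 18163385, with a score of 57.0 and a rank of 667 of 1354, and 95.4% of it lay inside BBX19 at the higher-coordinate end. A peak in replicate 2 only was found at 2.15% of protein-coding genes. Beyond the window, 5.36 kb from BBX19 in replicate 1 and 5.23 kb in replicate 2, stood a peak that ranked 31 and 32 in replicates 1 and 2, with scores of 850 and 1311. It ran from 18154213 to 18155543 in replicate 1, and its midpoint lay inside AT4G38950. This peak was close to that of BBX16 in rank, and its interval did not reach BBX19.

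Peaks called in both lists came within 10 kb of 3 further family genes without entering their windows. With BBX19, 4 of the 28 genes (14.3%) had a shared region within 10 kb, against 12.7% of all protein-coding genes. For BBX3 (COL2), the nearest case outside the limit, the peak was 3214 bp away in replicate 1, with a score of 230, and 3173 bp away in replicate 2, with a score of 376; its midpoint was inside ICME-LIKE2. For BBX32, which acts in light signalling, the peak was 4612 and 4456 bp away, scored 93.1 and 239 and had its midpoint inside AT3G21165. For BBX26 it was 5560 and 5504 bp away, scored 131 and 188 and had its midpoint inside BGLU6, a beta-glucosidase family gene. All 3 peaks thus had another gene under their midpoint, unlike the BBX16 peak. Over the 28 genes the median distance to a peak was 51.1 kb in replicate 1 and 50.2 kb in replicate 2, close to the 47.2 and 43.5 kb of all protein-coding genes.

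**Figure D4:**
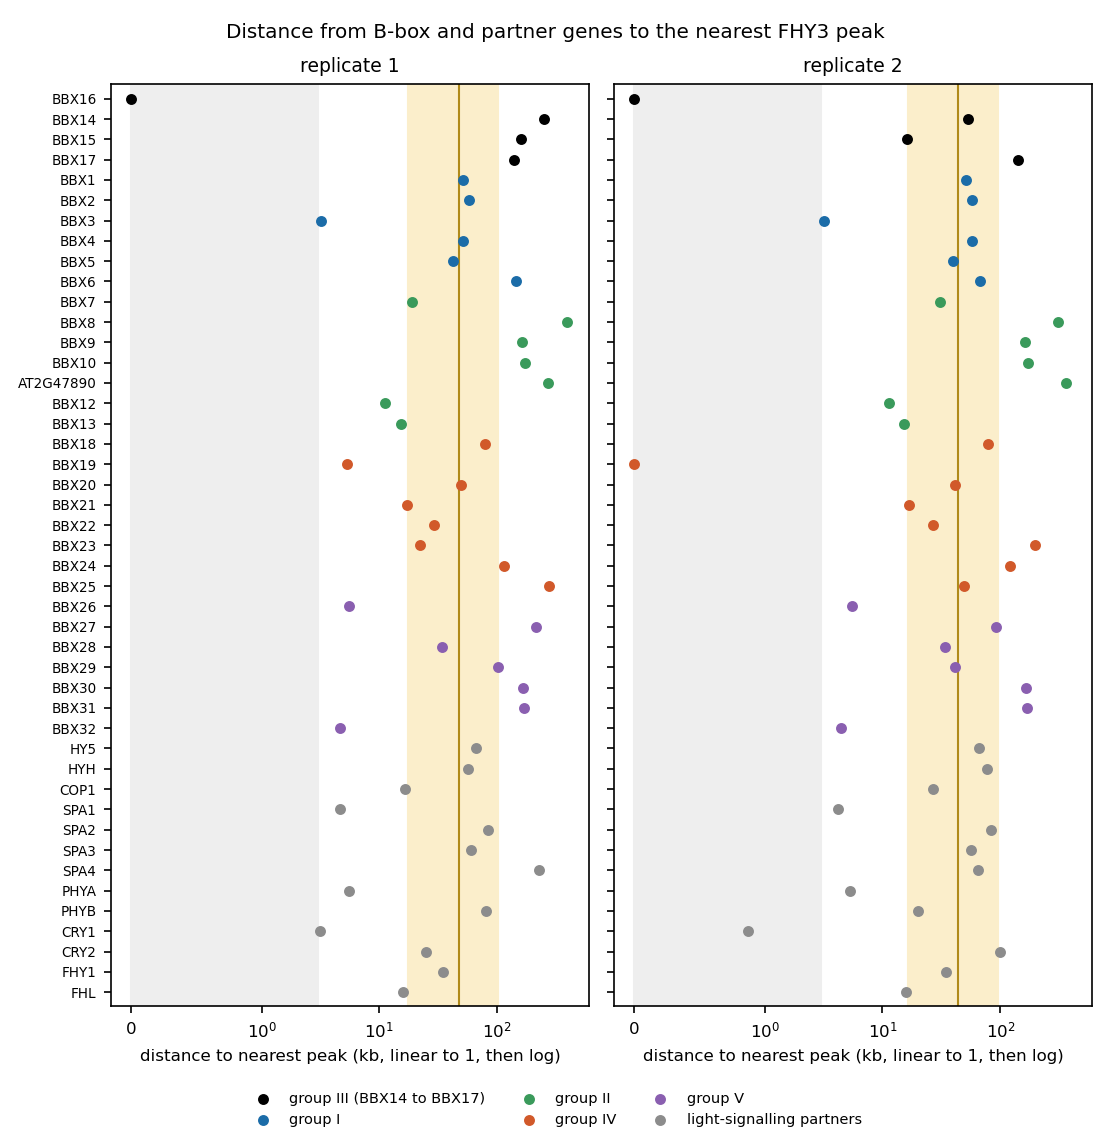
Distance in kb from each B-box family and partner gene to the nearest FHY3 peak in replicate 1 (left) and replicate 2 (right), on an axis that is linear to 1 kb and logarithmic beyond; grey shading marks 3 kb, the yellow band the middle 50% of all protein-coding genes and the line their median (47.2 and 43.5 kb). BBX16 is at 0 in both replicates and BBX19 in replicate 2 alone, and the other genes are spread around the background.

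Among 13 genes that act beside B-box proteins in light signalling, none had a peak in replicate 1 and 1 did in replicate 2, against the 7.24% and 7.6% of all genes. The gene was CRY1, which encodes a blue light receptor, with peaks of replicate 2 at 875 and 2578 bp. They scored 32.1 and 26.5 and ranked 1005 and 1189 of 1354. The gene nearest to both midpoints was APRL6, 586 bp from the first, and the second midpoint lay inside it. The farther of these 2 peaks overlapped a peak of replicate 1 that was 3123 bp from CRY1, just beyond the window, with a score of 23.7. Joined, they counted as a shared region, so 1 of 13 partners had a shared region while none had a peak within the limit in both lists, as 5.45% of protein-coding genes did. HY5, HYH, COP1, SPA1 to SPA4, PHYA, PHYB, CRY2, FHY1 and FHL had none. The peak nearest to PHYA, the far-red light receptor gene, ranked 52 in replicate 1 and 46 in replicate 2, at 5510 and 5331 bp from the gene and nearer to AT1G09550. At SPA1, a partner of COP1, the nearest peak was 4628 bp away in replicate 1, with a score of 51.6, and 4207 bp away in replicate 2, with a score of 134. The gene nearest to the midpoint of that peak was JAR1, at 1077 bp in replicate 1 and 1269 bp in replicate 2.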

How the data were processed

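The submitters' processing notes name MACS 1.4.2, Bowtie2 2.2.3 and CASAVA 1.8. Parameters, the control sample for peak calling and the build were not given in the sources used here. Peaks were not called on pooled reads, since the authors deposited 1 list per ChIP sample. Each list has 5 columns without a header, the last of which is the deposited score. Replicates were taken from the sample titles.

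Starts were converted to positions counted from 1. Gene spans, names and biotypes came from a RefSeq gene table of TAIR10.1, without strand. All 45 listed loci were found by locus; 44 also carry the listed name, and AT2G47890, listed as BBX11, does not. Peaks overlapping by at least 1 bp were joined into shared regions. Ties took their mean rank. Distances run from span to interval edge. Search and joining steps were tested on simulated data.

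Members, gene lists and the naming rule were chosen with earlier results of these data known. The rule names the 4 genes, listed genes with a peak, neighbours, the 5 nearest in rank and nearest peaks; BBX3, BBX26, BBX32, SPA1, PHYA and the other peaks within 10 kb were named after their values were seen. No test was run. The planned motif search and protein comparison need sequence, which was not used here. Intervals are Wilson intervals and, like the limit for 0 (3 counts), cover counting error only. Python 3.11.15, numpy 2.4.6, pandas 2.3.3, scipy 1.17.1 and matplotlib 3.10.9 were used.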

Additional observations from a re-analysis of the deposited data

How the results depend on the processing

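The count of 1 of 4 group III genes with a shared region, BBX16, was unchanged in 11 of 11 alternatives. These were flanks of 1000, 2000, 5000 and 10000 bp, and a score of at least 100 or at or above the median. The others were midpoints in place of intervals, a reciprocal overlap of 50%, midpoints within 200 bp, and each replicate alone, where single peaks were counted. BBX16 was chosen for its peak, which overlaps the gene and scores high in both lists, so none of these settings could remove it. Its unchanged count is therefore no support for the result. Flanks of 5000 and 10000 bp added none of BBX14, BBX15 and BBX17. The peak nearest to any of these 3 genes was 16.2 kb away, so none of the flanks could have added them. The rank of the BBX16 peak moved to 16 in replicate 1 and 12 in replicate 2 outside gene-poor bins, and to 229 and 149.5 by width. The 1511 genes with a shared region became 899 with a flank of 1000 bp, 3481 with 10000 bp and 829 with a score of at least 100. Leaving out either replicate gave 1988 to 2087 genes. The 0 of 28 other family genes became 2 with 5000 bp (BBX3 and BBX32) and 4 with 10000 bp (BBX3, BBX19, BBX26 and BBX32), and 0 to 1 with either replicate left out, the 1 being BBX19 without replicate 1. The 1 of 13 partners, CRY1, became 0 with 1000 or 2000 bp, either score limit, midpoints, a reciprocal overlap of 50% or midpoints within 200 bp, 2 with 5000 bp and 3 with 10000 bp, and 0 to 1 with either replicate left out. Wider flanks, fewer peaks or a single list make these counts differ by construction. No paired analysis was possible because no test between groups was run. Depth is unknown, which limits what the lack of a peak at BBX14, BBX15 and BBX17 shows.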
